A study of Homo sapiens with 28 samples.

Results

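ZNF117 and ERV3-1 are overlapping genes of chromosome band 7q11, and ZNF680, ZNF107, ZNF138, ZNF273 and ZNF92 are zinc finger genes that lie around them. These 7 genes, all measured among 18417 genes, were chosen by the low values of ZNF117 and ERV3-1 in HEK293 cells depleted of HNRNPL and by position, so what the HNRNPL arrays show of them is a description with no test. HEK293 cells, a human embryonic kidney line, were each given 1 lentiviral vector, in which the U6 promoter drives a short hairpin RNA (shRNA), and were collected after 6 days in puromycin. RNA was hybridised to 28 Human Gene ST1.0 arrays, handled as 2 series of 14. The first series held shRNAs against HNRNPL, CLP1, DDX5 and DDX17 (3 hairpins each, 1 array per hairpin), 1 array for CPSF6 and 1 for the control hairpin against lacZ, a bacterial gene that human cells lack. In the second, 3 hairpins each were used against PRKDC, SUPT16H, PARP1 and PABPC1, with 2 lacZ arrays. HNRNPL is an RNA-binding protein and regulator of splicing, CLP1, CPSF6 and PABPC1 act in 3′ end processing or bind poly(A) tails, DDX5 and DDX17 are related RNA helicases, and PARP1, PRKDC and SUPT16H act on DNA and chromatin. The study kept the most effective of the hairpins it tried, so the hairpins of a gene are separate infections but a selected set.

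Zinc finger genes of this kind form clusters that grew by duplication. Many of their products carry a KRAB domain, which recruits the corepressor TRIM28 and the histone methyltransferase SETDB1 to silence transposable elements. ERV3-1 is an endogenous retrovirus of the HERV-R family that has kept an open reading frame for an envelope protein, and it is best known for its expression in the placental syncytiotrophoblast. ERV3-1 transcripts can run on into ZNF117, and RefSeq lists a readthrough gene of both, ERV3-1-ZNF117, which has no probeset of its own name here. Along the chromosome RefSeq places the 7 genes in the order ZNF680, ZNF107, ZNF138, ZNF273, ZNF117, ERV3-1 and ZNF92. ZNF117 and ERV3-1 are read from the same strand, and the start annotated for ZNF117 lies inside ERV3-1. Signal from a transcript through both cannot be told apart here from that of each gene alone, and whether their probesets share probes was not tested.

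Most of the 7 genes share a stretch of promoter sequence, which is shown because ERV3-1 and the zinc finger neighbours hold it and the annotated start of ZNF117 does not. The RefSeq promoter windows (GRCh38.p14, 250 bases before to 50 after an annotated start) of 6 of the 7 genes hold both TTCCGG and TTTGTCT, the motifs in capitals. The lines give 30 bases at each such start, 5′ to 3′ on the strand of the gene.
ZNF680: cTTCCGGgatttggcggggccTTTGTCTct
ZNF107: cTTCCGGgatttggcggggccTTTGTCTct
ZNF138: cTTCCGGgaggcggcggggtcTTTGTCTcg
ZNF273: cTTCCGGgatttggcggggccTTTGTCTct
ERV3-1: cTTCCGGgtttggtggggccTTTGTCTctg
ZNF92: cTTCCGGgatttggcggggccTTTGTCTct
These stretches lie at chr7:64563066-64563095 on the minus strand for ZNF680, chr7:64666115-64666144 for ZNF107, chr7:64794404-64794433 for ZNF138 and chr7:64903249-64903278 for ZNF273, all on the plus strand, chr7:65006681-65006710 on the minus strand for ERV3-1 and chr7:65373831-65373860 on the plus strand for ZNF92. They begin 18 to 24 bases before the annotated start. The stretch is identical in ZNF680, ZNF107, ZNF273 and ZNF92, ZNF138 matches ZNF107 at 25 of 30 bases, and ERV3-1 matches it at 28 of 29 once 1 base of ZNF107 is skipped. With both strands searched and no motif contained in another, both motifs together occur in 0.626% of all 35116 promoter windows and in 6.36% of 519 windows of genes named ZNF and a number, members included. Each of the 6 windows also holds CCAATCA at 2 places, a motif found in 6.95% of all windows and 19.8% of the ZNF windows. Of the 33 ZNF windows with both motifs, 27 hold it too. The window at the start of ZNF117 itself holds none of the 3 motifs, and neither does that at another annotated start of ZNF273 or of ERV3-1. The window of the readthrough gene begins further upstream and holds TTCCGG and CCAATCA. It ends at chr7:65006697, inside the ERV3-1 stretch, so the TTTGTCT of that stretch falls just outside it.

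In all 25 knockdown arrays the targeted gene was below the lacZ mean of its series, at 18.8% to 69.7% of it. The median intensity of an array lay between 61.49 and 74.01 for the first series and between 54.53 and 58.34 for the second. The series were normalized apart, and all values below are log2 intensities. Groups are compared within a series, except where both lacZ arrays stand behind every knockdown and in the test between the series. The lacZ array of the first series and lacZ array 2 of the second were 0.32 apart on average, and the SD of that difference among probesets was 0.07, whereas it was 0.28 between lacZ arrays 2 and 3 and 0.20 to 0.77 between hairpins of a gene. Since they differed by less than the sampling noise, they were taken as 1 control sample, which enters each series once. First-series comparisons with lacZ therefore rest on 1 control array and second-series comparisons on 2, one of which is that same array, and it is not stated if these controls were cultured apart. The p-values thus reflect the spread of these samples alone, which may partly be technical. The median of 207 small RNA genes (small nucleolar, Cajal body and nuclear RNAs) differed between arrays and stood highest in HNRNPL hairpin 3 (8.62), DDX5 hairpin 3 (8.56) and DDX17 hairpin 2 (8.55), against 7.17 to 7.92 in the other 11 arrays of the first series. Of the markers set down for HEK293, VIM, KRT8, KRT18, CDH2 and LIN28B lay above 80.3% or more of genes, and NEFM and PAX2 above 37.2% and 49.4%. Of the markers of other cell types, the blood genes PTPRC, HBB and CD3E lay above 1.57%, 11.6% and 22.2% of genes, the liver genes ALB and APOA1 above 11.6% and 34.5%, and the keratinocyte genes KRT5 and KRT14 above 26.4% and 41.1%. The fibroblast genes were split, with DCN above 2.13% and COL1A1 above 60.6%, so COL1A1 lay above NEFM and PAX2 and KRT14 between them. Of the syncytiotrophoblast markers measured, PSG1 and ERVW-1 lay above 3.63% and 9.01% of genes. CGA went the other way, above 72.5% of genes, and varied widely (5.17 to 9.78).

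Averaged over the 28 arrays, all 7 genes lay in the middle or upper part of the intensity range. In the second-series knockdowns ZNF117 read lower, 4.52 to 5.43, about where the blood gene CD3E lay (4.69 to 5.41 over all arrays). ERV3-1 averaged 6.27 over the 28 arrays, above 48.3% of genes, and ZNF117 averaged 5.97, above 41.5%. ZNF273 and ZNF138 were at 7.68 and 7.65, above 78.9% and 78.4% of genes, with ZNF107 at 7.43, ZNF92 at 7.10 and ZNF680 at 6.91. Probes differ in affinity, so these levels place each gene on the array and do not rank the transcripts. ZNF138 has a second probeset, which enters below only where a median over both is named. In first-series arrays it read 5.55 to 6.06 and in second-series arrays 5.16 to 5.93.

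In the HNRNPL arrays, ZNF117 read 5.92, 6.10 and 5.39 in hairpins 1, 2 and 3, against 6.75 in the lacZ array. ERV3-1 read 6.02, 6.26 and 5.55, against 6.74 in lacZ. All 3 hairpins were thus below the control for both genes, to 51.7% of its level for ZNF117 and 57.7% for ERV3-1, a difference of -0.95 ± 0.32 and -0.79 ± 0.33 on the log2 scale (SE, n = 3 hairpins and 1 lacZ array). With a second lacZ array behind the first series the differences were -0.62 and -0.50. For that setting all arrays were quantile-normalized together. The second series was then moved, gene by gene, by the difference between the copies of the shared lacZ array. Among the other knockdowns of the series, the CLP1 and DDX17 arrays stood above lacZ for both genes and the DDX5 arrays on either side of it. ZNF117 read 7.01, 7.32 and 7.27 in the CLP1 hairpins, 7.45, 7.22 and 7.73 in the DDX17 hairpins, and 7.01, 6.94 and 5.95 in the DDX5 hairpins. ERV3-1 read 6.99, 7.45 and 7.43 with CLP1, 7.33, 7.29 and 7.77 with DDX17, and 6.90, 6.95 and 6.25 with DDX5. Against the mean of these 3 knockdowns the HNRNPL difference was -1.30 ± 0.19 for ZNF117 and -1.20 ± 0.19 for ERV3-1 (SE). The ranges overlapped through a single array, DDX5 hairpin 3, which stood below HNRNPL hairpin 2 for both genes. The CPSF6 array, 1 hairpin only, read 7.53 for ZNF117 and 7.63 for ERV3-1, among the highest of the first series.

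**Figure D1:**
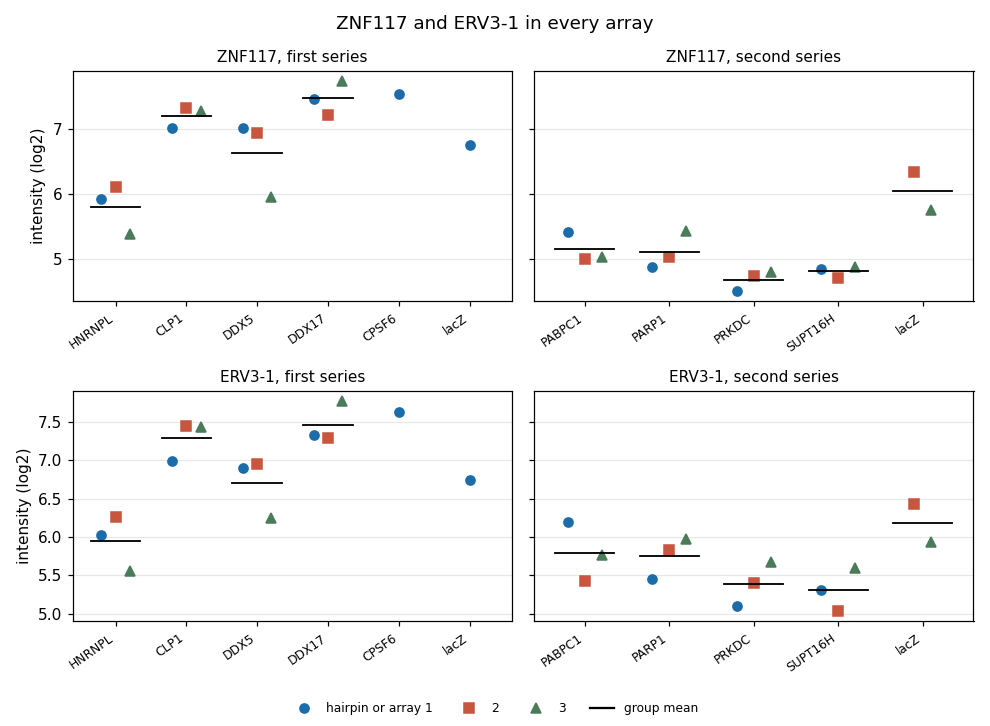
Log2 intensity of ZNF117 (top) and ERV3-1 (bottom) in every array of the first series (left) and the second (right), with knockdowns left of lacZ, a symbol per hairpin or array and a line at the mean of groups with more than 1 array. In the first series the HNRNPL hairpins sit between 5.39 and 6.10 for ZNF117, and in the second series all knockdown arrays sit below both lacZ arrays for ZNF117.

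In the same arrays ZNF92 differed from lacZ by -0.82 ± 0.42, about as much as the pair, and the other 4 neighbours by -0.38 to -0.05. ZNF138 read 8.52, 8.37 and 7.67 in the HNRNPL hairpins, against 8.24 in lacZ, and ZNF680 read 7.47, 7.38 and 6.90, against 7.45. Both overlapped the control. ZNF107 read 8.04, 8.17 and 7.31 with HNRNPL, against 8.23, and ZNF273 read 8.25, 8.23 and 7.47, against 8.32, so that hairpins 1 and 2 lay just below lacZ for both and hairpin 3 further below. ZNF92 read 7.88, 7.58 and 6.85, against 8.26. In all, 5 of the 7 genes had every HNRNPL hairpin below the lacZ array, as had 31.1% of all genes and 40.6% of 433 other measured genes named ZNF and a number, a count from which nothing is read since the genes were picked on these arrays. Hairpin 3 was the lowest of the HNRNPL arrays for each of the 7 genes, and DDX5 hairpin 3 was likewise the lowest DDX5 array, with ZNF92 at 6.80, ZNF107 at 7.15, ZNF138 at 7.76, ZNF273 at 7.42 and ZNF680 at 6.65. These are 2 of the 3 arrays with the highest small RNA level, while in the third, DDX17 hairpin 2, the neighbours averaged 8.08, against 8.10 in lacZ. HNRNPL itself stood at 41.8%, 52.5% and 65.9% of lacZ in its hairpins 1, 2 and 3. The lowest values thus came from the HNRNPL array with the weakest depletion. DDX5 stood at 55.8%, 51.3% and 40.5% of lacZ in its own hairpins, so there hairpin 3 had the strongest depletion. What part the small RNA level or the depth of depletion has in these values was not tested.

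**Figure D2:**
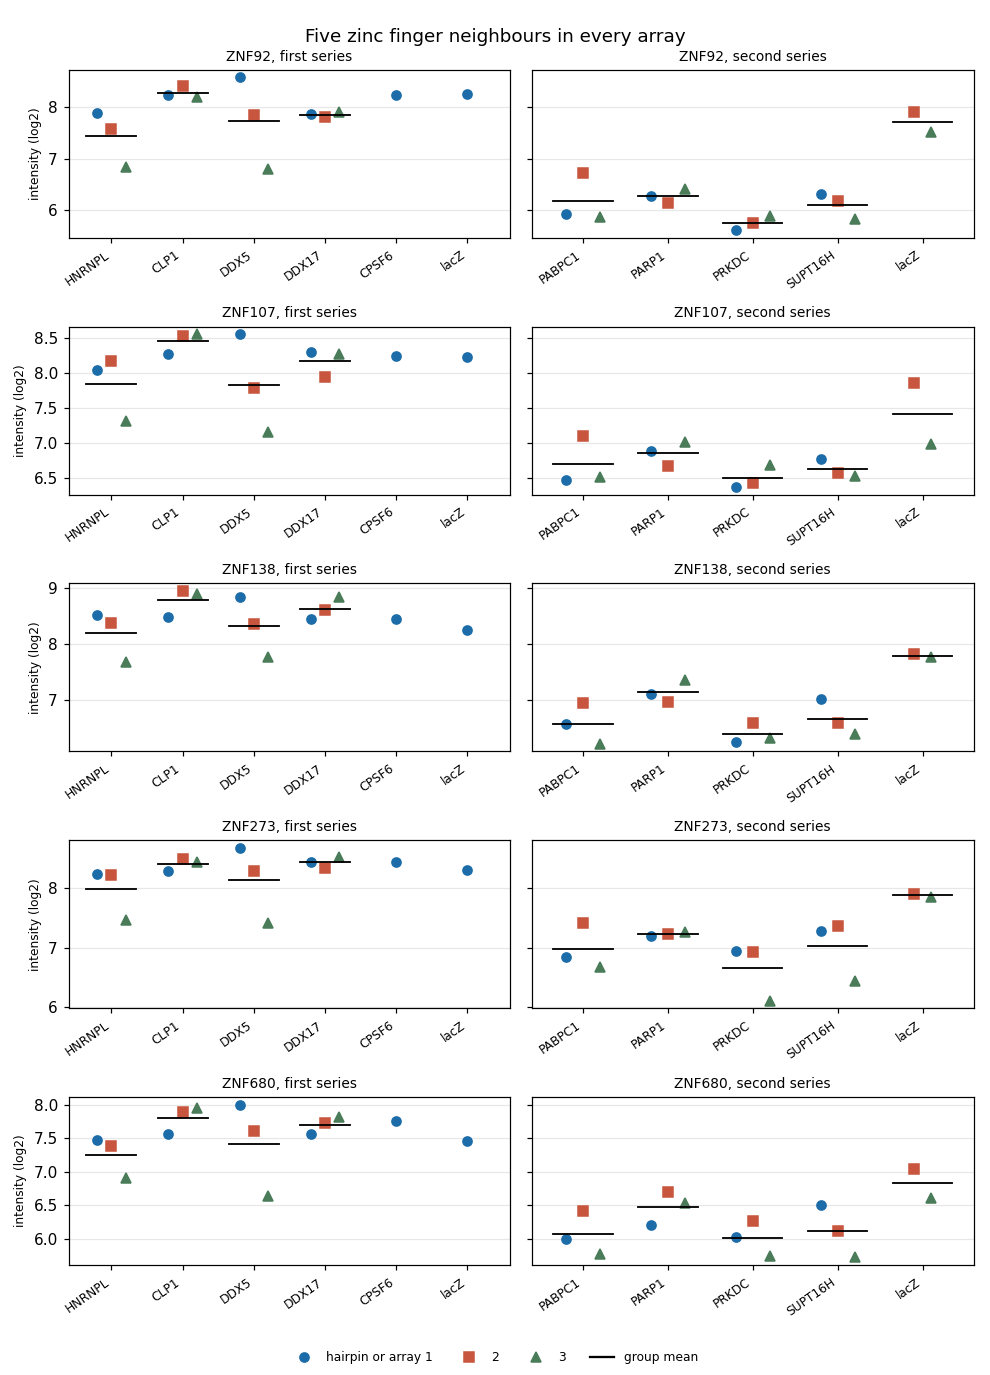
Log2 intensity of ZNF92, ZNF107, ZNF138, ZNF273 and ZNF680 in every array, drawn as for the pair of genes above, first series left and second series right. For each of the 5 genes hairpin 3 is the lowest of the 3 HNRNPL arrays and of the 3 DDX5 arrays, and in the second series nearly all knockdown arrays sit below the lacZ arrays.

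Setting the mean of ZNF117 and ERV3-1 against the mean of the 5 neighbours in the same array takes out what moved all 7 genes alike. This relative level was -2.06, -1.77 and -1.77 in the HNRNPL hairpins, against -1.35 in the lacZ array. In the other first-series knockdowns it was -1.17 to -1.06 with CLP1, -1.58 to -1.03 with DDX5, -0.83 to -0.52 with DDX17 and -0.64 in the CPSF6 array. DDX5 hairpin 3, at -1.06, no longer overlapped the HNRNPL arrays, and the DDX17 hairpins stood above every array of the series other than CPSF6. ZNF117 and ERV3-1 were picked for their low HNRNPL values, so nothing is read from the separation of the HNRNPL arrays. In the second series the knockdown arrays spanned -1.70 to -0.56, and the lacZ arrays, at -1.32 and -1.50, lay within that range.

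**Figure D3:**
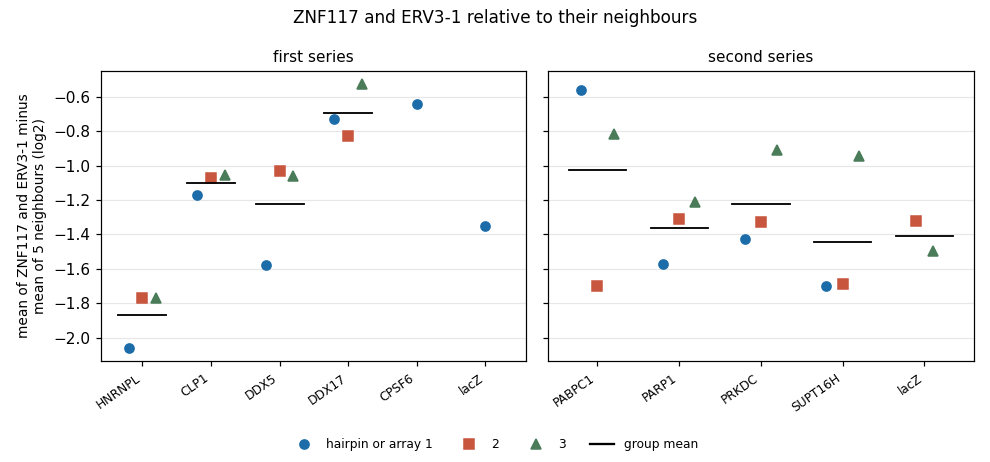
Mean log2 intensity of ZNF117 and ERV3-1 minus the mean of the 5 neighbours in each array, first series left and second right, knockdowns left of lacZ, with a line at the mean of groups with more than 1 array. The HNRNPL hairpins sit at -2.06 to -1.77, below all other arrays of the first series, and the second-series knockdowns spread around the lacZ arrays. ZNF117 and ERV3-1 were picked for their low HNRNPL values.

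The remaining first-series knockdowns were then set against lacZ, comparisons that share 1 control array. For CLP1, all 7 differences were above 0, from 0.02 ± 0.42 for ZNF92 to 0.55 ± 0.33 for ERV3-1 (SE, n = 3 and 1), and 0 of 7 genes passed the limma test at an adjusted p below 0.05, where 0.956% of all genes did. For DDX5, 0 of 7 passed, against 0.842% of all genes, and differences ran from -0.52 ± 0.42 for ZNF92 to 0.07 ± 0.34 for ZNF138. For DDX17, 0 of 7 passed, against 2.77% of all genes. ZNF117 and ERV3-1 had the largest DDX17 differences, 0.71 ± 0.32 (adjusted p = 0.291) and 0.72 ± 0.33 (adjusted p = 0.295, limma), with 3 of 3 hairpins above lacZ, while all 3 DDX17 hairpins were below lacZ for ZNF92 (-0.40 ± 0.42, adjusted p = 0.780). At an unadjusted p below 0.05 the counts were 0 for CLP1, 0 for DDX5 and 2 for DDX17. Over all 18417 genes they were 1695, 2096 and 2713. With both lacZ arrays behind every knockdown, which moves a second-series array into the first, ZNF117 (0.96, adjusted p = 0.0225) and ERV3-1 (0.94, adjusted p = 0.0248, limma) passed for DDX17. The share of all genes passing in that setting was not counted.

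Each first-series knockdown was also set against the others of its series, which leaves lacZ out. In the DDX17 arrays ZNF117 was higher than in the other 3 knockdowns by 0.92 ± 0.19 (limma, adjusted p = 0.0144) and ERV3-1 by 0.82 ± 0.19 (adjusted p = 0.0354), in 3 of 3 hairpins each, so 2 of 7 genes passed, where 0.874% of all genes did. That mean includes the HNRNPL arrays on which the genes were picked. With HNRNPL left out, ZNF117 was 0.55 ± 0.20 and ERV3-1 0.47 ± 0.20 above CLP1 and DDX5, and 0 of 7 passed (adjusted p = 0.183 and 0.300, limma), against 1.59% of all genes. The calls were lost as well with the first series fitted alone and without DDX17 hairpin 1 or 3, and that of ERV3-1 without hairpin 2. For CLP1, 0 of 7 passed against the other 3 knockdowns, where 0.722% of all genes did, and 0 of 7 without HNRNPL, where 0.195% did. For DDX5, 0 of 7 passed, against 0.038% of all genes, and likewise 0 of 7 without HNRNPL, against 0.00543%. In that last comparison ZNF117 (-0.70 ± 0.20) and ERV3-1 (-0.67 ± 0.20) were lower in all 3 DDX5 hairpins than in every CLP1 and DDX17 array, with an adjusted p of 0.397 for each (limma). Without DDX5 hairpin 1, ZNF107 passed against the other 3 knockdowns, HNRNPL included (-0.69, adjusted p = 0.0343, limma). At an unadjusted p below 0.05 the counts were 4 for CLP1 and 0 for DDX5 against the other 3 knockdowns, and 0 for CLP1, 3 for DDX5 and 2 for DDX17 with HNRNPL left out. Over all 18417 genes they were 3186 and 1695 against the other 3 knockdowns. With HNRNPL left out they were 2752, 2298 and 2398.

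In the second series each of the 7 genes had a lower mean in each knockdown than in lacZ. ZNF92 read 5.94, 6.73 and 5.88 in the PABPC1 hairpins, 6.28, 6.14 and 6.42 with PARP1, 5.62, 5.76 and 5.89 with PRKDC and 6.32, 6.17 and 5.83 with SUPT16H, against 7.91 and 7.51 in lacZ arrays 2 and 3. All 12 knockdown arrays of ZNF92 were thus below both controls. It averaged 25.8% of lacZ in the PRKDC arrays (-1.95 ± 0.33, adjusted p = 0.000473, limma), 32.9% with SUPT16H (-1.61 ± 0.33, adjusted p = 0.0042), 34.6% with PABPC1 (-1.53 ± 0.33, adjusted p = 0.00738) and 37.0% with PARP1 (-1.44 ± 0.33, adjusted p = 0.0107).

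ZNF117 read 5.42, 5.01 and 5.03 with PABPC1, 4.88, 5.04 and 5.43 with PARP1, 4.52, 4.74 and 4.81 with PRKDC and 4.85, 4.71 and 4.89 with SUPT16H, against 6.34 and 5.76 in lacZ. Here too all 12 knockdown arrays were below both controls. The gene fell in each of the 4 comparisons, with a difference of -1.36 ± 0.26 with PRKDC (adjusted p = 0.00112), -1.23 ± 0.26 with SUPT16H (adjusted p = 0.00435), -0.94 ± 0.26 with PARP1 (adjusted p = 0.0306) and -0.90 ± 0.26 with PABPC1 (adjusted p = 0.0387, limma). For ERV3-1 the differences were smaller. It read 6.19, 5.43 and 5.76 with PABPC1, 5.45, 5.83 and 5.97 with PARP1, 5.11, 5.40 and 5.68 with PRKDC and 5.31, 5.04 and 5.60 with SUPT16H, against 6.43 and 5.94. PABPC1 hairpin 1 and PARP1 hairpin 3 overlapped the controls. ERV3-1 fell with SUPT16H (-0.87 ± 0.26, adjusted p = 0.0385) and PRKDC (-0.79 ± 0.26, adjusted p = 0.0251), and was -0.43 ± 0.26 with PARP1 (adjusted p = 0.377) and -0.39 ± 0.26 with PABPC1 (adjusted p = 0.347, limma).

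The gap between ZNF117 and ERV3-1 was therefore wider in the second-series knockdowns. ZNF117 minus ERV3-1 was -0.87 to -0.33 in these 12 arrays, against -0.09 and -0.17 in the lacZ arrays, with no overlap. In the first series it was -0.29 to 0.12 over the 13 knockdown arrays, against 0.01 in lacZ, and -0.10, -0.16 and -0.17 in the HNRNPL hairpins. The difference was looked at after the values were seen and has no test. ZNF117 read only 4.52 to 5.43 in the second-series knockdowns, and what part that low level has in the gap was not tested.

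Of the remaining neighbours, ZNF138 fell with PRKDC (-1.40 ± 0.27, adjusted p = 0.00143), PABPC1 (-1.21 ± 0.27, adjusted p = 0.00959) and SUPT16H (-1.12 ± 0.27, adjusted p = 0.013), and was -0.64 ± 0.27 with PARP1 (adjusted p = 0.179, limma). Its values were 6.57, 6.94 and 6.22 with PABPC1, 7.11, 6.97 and 7.35 with PARP1, 6.26, 6.59 and 6.32 with PRKDC and 7.02, 6.59 and 6.40 with SUPT16H, against 7.81 and 7.76 in lacZ. No knockdown array reached the controls. ZNF138 is also the gene for which the choice of probeset mattered, since the median over both its probesets gave -0.54 with PABPC1, -0.56 with PRKDC and -0.45 with SUPT16H (adjusted p = 0.0641, limma, for the last, which did not pass). ZNF273 ranged from 6.11 to 7.42 over the 12 knockdown arrays, against 7.91 and 7.86, and fell with PRKDC (-1.23 ± 0.31, adjusted p = 0.00746). ZNF107 ranged from 6.37 to 7.10, against 7.85 and 6.98, the widest split between the lacZ arrays of the 7 genes, and fell with PRKDC (-0.92 ± 0.30, adjusted p = 0.0233). ZNF680 ranged from 5.73 to 6.71, against 7.05 and 6.61, and fell with PRKDC (-0.81 ± 0.29, adjusted p = 0.0348, limma). In the PABPC1, PARP1 and SUPT16H comparisons these last 3 genes lay between -0.35 and -0.91, with adjusted p from 0.0793 to 0.551.

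**Figure D4:**
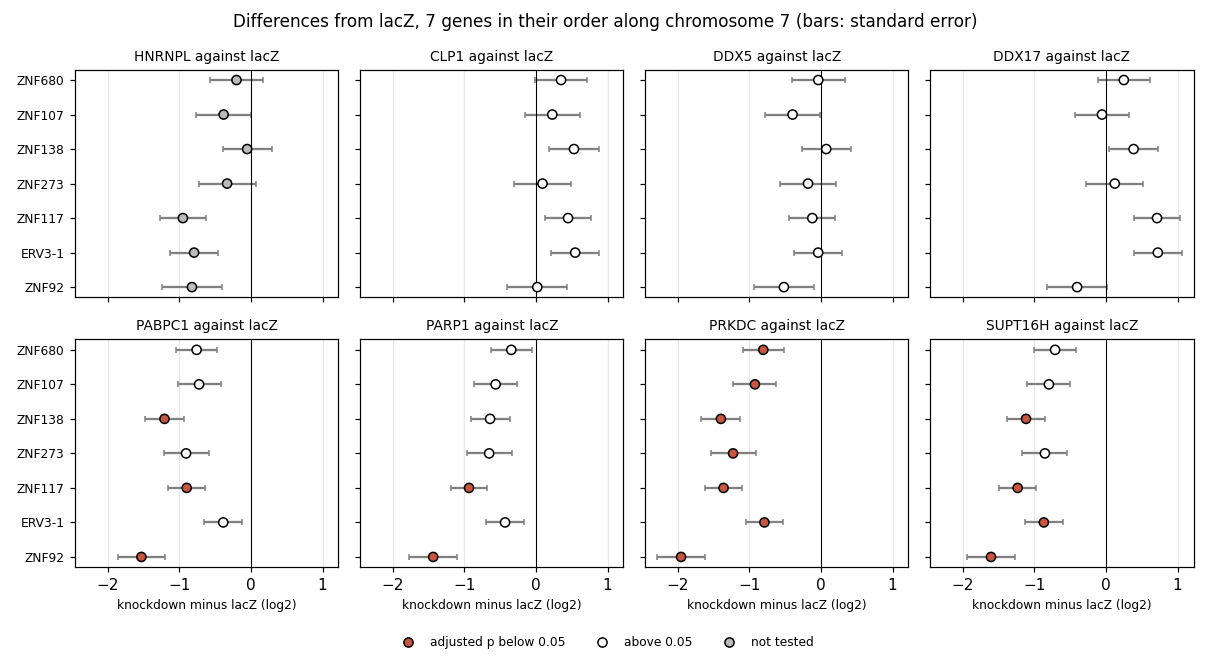
Knockdown minus lacZ (log2, SE bars) for the 7 genes in their order along chromosome 7, a panel per knockdown, with filled points where the adjusted p of limma was below 0.05, open points where it was not and grey points for HNRNPL, which was not tested. All 7 points are filled for PRKDC, and with HNRNPL the lowest points are ZNF117, ERV3-1 and ZNF92.

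Counted over the group, 7 of 7 genes fell with PRKDC, where 16.1% of all genes passed as lower. With SUPT16H 4 of 7 fell, against 5.76% of all genes, with PABPC1 3 of 7, against 4.02%, and with PARP1 2 of 7, against 2.98%. Every hairpin lay below both lacZ arrays for 7 genes with PRKDC (27.5% of all genes and 45.0% of the other ZNF genes), 7 with SUPT16H (24.6% and 45.7%), 5 with PABPC1 (25.4% and 48.0%) and 4 with PARP1 (21.9% and 40.2%). The median difference of the 7 genes was -1.23 with PRKDC, -0.90 with PABPC1, -0.87 with SUPT16H and -0.64 with PARP1, against 0.10, 0.04, 0.07 and 0.04 over all genes. The 4 comparisons share both lacZ arrays, so their common direction is not repeated evidence. Without lacZ array 2, which reads higher than array 3 for all 7 genes and is the array present in both series, the counts were 2 of 7 with PRKDC (ZNF92 and ZNF138) and 0 of 7 with SUPT16H, PABPC1 and PARP1, though each gene's difference stayed below 0. With the second series fitted alone the counts were 7 with SUPT16H and 6 with PABPC1. The share of all genes passing was not counted without lacZ array 2 or with the series fitted alone. The shares above belong to the main fit, so these last counts have none to stand against.

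Set against each other, the second-series knockdowns gave no call among these genes. Against the other 3 knockdowns 0 of 7 genes passed for PABPC1 (0.0869% of all genes did), PARP1 (0.554%), PRKDC (0.0869%) and SUPT16H (0.0109%). The differences ran from -0.16 to 0.31 for PABPC1, 0.23 to 0.60 for PARP1, -0.43 to -0.20 for PRKDC and -0.33 to 0.08 for SUPT16H (SE 0.19 to 0.24). At an unadjusted p below 0.05, 1 gene, ZNF138, passed for PARP1 (0.60 ± 0.20, adjusted p = 0.141) and for PRKDC (-0.41 ± 0.20, adjusted p = 0.204, limma), and 0 passed for PABPC1 and SUPT16H. Of all 18417 genes 3429, 4517, 1896 and 1654 did for PARP1, PRKDC, PABPC1 and SUPT16H. Whether the effect against lacZ differed between the series was tested on the mean over CLP1, DDX5 and DDX17 and the mean over the 4 second-series knockdowns. Second minus first series, the difference was -1.45 ± 0.37 for ZNF117 (adjusted p = 0.156) and -1.42 ± 0.39 for ZNF138 (adjusted p = 0.231), the largest of the 7, and 0 of 7 passed, where 0.0597% of all genes did (limma). At an unadjusted p below 0.05 the count was 4 of 7, and the share of all genes at that threshold was not counted. That fit is an exception to the count of the shared lacZ array as 1 sample, since it took its copy in each series as a sample of its own.

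The small RNA level stood beside these differences. Its median was 7.52 to 7.95 in the PABPC1 arrays, 6.91 to 7.68 with PARP1, 7.89 to 7.93 with PRKDC and 7.35 to 8.11 with SUPT16H, against 6.79 and 7.21 in lacZ. PARP1 hairpin 3, at 6.91, lay between the 2 controls, and its 5 neighbours averaged 6.91, against 7.71 and 7.34 in lacZ. SUPT16H hairpin 3, at 7.35, had a neighbour mean of 6.19, lower than SUPT16H hairpin 1 (6.78), which had the highest small RNA level of the second series. Other arrays went the other way. PARP1 hairpin 3 and PABPC1 hairpin 2 (small RNA level 7.52, neighbour mean 6.92) had the highest neighbour means of these knockdowns. The PRKDC arrays, at 7.89 to 7.93, had means of 6.15 to 6.40. The part of the small RNA level in the lower values was not tested.

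**Figure D5:**
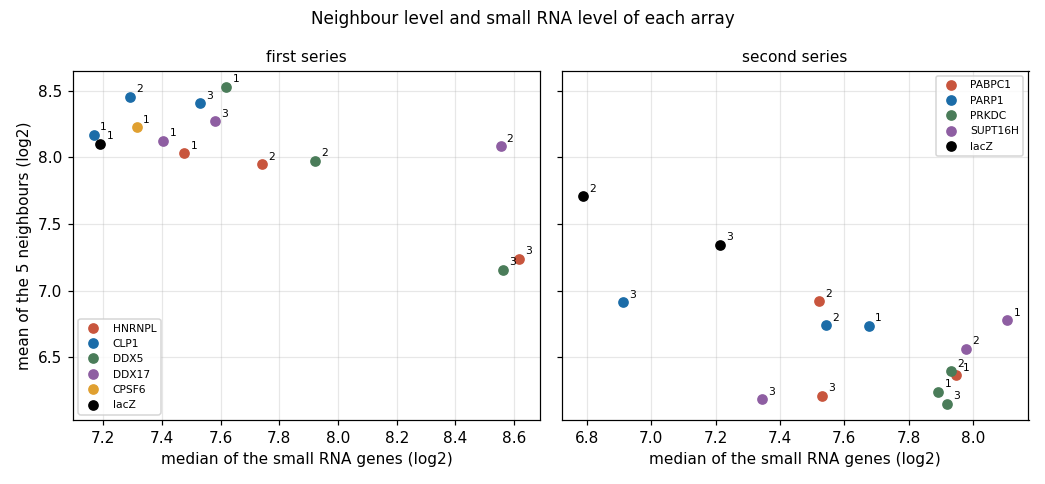
Mean log2 intensity of the 5 neighbours against the median log2 intensity of 207 small RNA genes, a point per array labelled with its hairpin or array number, first series left and second right. HNRNPL hairpin 3 and DDX5 hairpin 3 sit apart at lower right, DDX17 hairpin 2 sits at upper right, and the lacZ arrays of the second series sit above all knockdown arrays.

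Across the 25 knockdown arrays, after the mean of the knockdown arrays of each series was taken off, ERV3-1 was the gene most like ZNF117 among all other genes and ZNF117 the one most like ERV3-1 (Pearson r = 0.97, 0.99 within the first series and 0.88 within the second). The arrays share groups and normalization, the HNRNPL arrays are among them, and the 2 genes overlap, so r is a description. Next to ZNF117 came USP16, a histone H2A deubiquitinase (0.84), MPDZ (0.80), USP47 (0.80) and UBLCP1 (0.80), and next to ERV3-1 came ZNF860 (0.79), CCDC178 (0.77), USP16 (0.76) and LRRC49 (0.76). The 5 neighbours were less like the pair, with r of 0.56 to 0.66 to ZNF117 and 0.39 to 0.56 to ERV3-1, than like each other, with r of 0.73 to 0.92. That likeness was not particular to them. Among 18416 other genes, 1 neighbour ranked for another from 4 (ZNF680 for ZNF138) to 1965 (ZNF273 for ZNF107).

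Other genes of the region and of the family give the setting. Of 17 measured genes from 1 Mb before the group to 2 Mb after it, 9 fell and 1 was higher with PRKDC, 6 fell with PABPC1, 6 with SUPT16H and 3 with PARP1. These were 52.9%, 35.3%, 35.3% and 17.6% of the 17 as lower, against 16.1%, 4.02%, 5.76% and 2.98% of all genes, with medians of -0.51, -0.41, -0.43 and -0.45. RABGEF1, a guanine nucleotide exchange factor for RAB5, fell in all 4, with -2.02 ± 0.33 for PRKDC (adjusted p = 0.000355), -1.65 ± 0.33 for PABPC1 (adjusted p = 0.00403), -1.58 ± 0.33 for SUPT16H (adjusted p = 0.00463) and -1.54 ± 0.33 for PARP1 (adjusted p = 0.00617, limma). TYW1, which acts in the making of wybutosine in tRNA, fell in all 4 as well (-1.01 to -0.68), and STAG3L4 fell with PABPC1 and PRKDC. In the first series the long noncoding RNA LINC03129 was the 1 gene of the 17 to pass against lacZ, lower with DDX5 (-1.03 ± 0.20, adjusted p = 0.00974) and DDX17 (-0.86 ± 0.20, adjusted p = 0.018), and KCTD7 was lower with DDX17 than with the other knockdowns (-0.48 ± 0.12, adjusted p = 0.0393, limma). In the HNRNPL arrays RABGEF1 (-1.48) and LINC03129 (-1.11) stood further below lacZ than ZNF117, and STAG3L4 (-0.83) further than ERV3-1, values picked out after they were seen and given with no test. The 17 genes had a median of -0.21 there, and the 7 genes one of -0.38, against -0.01 over all genes. RABGEF1 and LINC03129 were also below lacZ in the CLP1 (-0.67 and -0.69), DDX5 (-1.06 and -1.03) and DDX17 arrays (-1.15 and -0.86), where ZNF117 was at 0.45, -0.12 and 0.71.

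Of 433 other measured genes named ZNF and a number, 120 fell and 67 were higher with PRKDC, 61 and 20 with SUPT16H, 33 and 20 with PABPC1, and 22 and 26 with PARP1, with medians of -0.23, -0.24, -0.20 and -0.13. As shares, 27.7% fell and 15.5% were higher with PRKDC, against 16.1% and 19.6% of all genes, and 14.1% fell and 4.62% were higher with SUPT16H, against 5.76% and 3.77%. With PABPC1 7.62% fell and 4.62% were higher, against 4.02% and 1.73%, and with PARP1 5.08% fell and 6.0% were higher, against 2.98% and 2.46%. ZNF844 fell in all 7 tested comparisons with lacZ (-2.01 to -1.49), which share control arrays, while ZNF528 was higher with DDX17 (1.56 ± 0.23, adjusted p = 0.000233), PABPC1 (1.38 ± 0.18, adjusted p = 5.42e-05) and PARP1 (1.54 ± 0.18, adjusted p = 8.45e-06, limma). The 25 of them with both promoter motifs had medians of -0.39 with PRKDC, -0.41 with SUPT16H, -0.30 with PABPC1 and -0.01 with PARP1, against -0.26, -0.26, -0.24 and -0.18 in 340 with a promoter window but not both motifs. Of the 25, 9 fell and 2 were higher with PRKDC, 3 and 2 with SUPT16H, 0 and 3 with PABPC1 and 0 and 4 with PARP1, so that the list had no single direction. With DDX17 against CLP1 and DDX5, 6 of the 25 were higher and 0 lower, and 15 of the 340 were higher and 2 lower, with medians of 0.34 and 0.03, where 0.695% of all genes were higher and 0.896% lower. Against lacZ, 2 of the 25 were higher with DDX17 and 0 lower, and 9 of the 340 were higher and 8 lower. The medians were 0.20 and -0.01, and 1.22% of all genes were higher and 1.56% lower. The same 25 read low with DDX5, part of the comparator above. Their median was -0.49 against CLP1 and DDX17 and -0.24 against lacZ, with 0 passing (0.00543% and 0.842% of all genes did). The 340 had medians of -0.20 and -0.14. In the HNRNPL arrays against lacZ the medians of the 25 and the 340 were -0.09 and -0.10. These are counts and medians of lists, and no test of a list was made.

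Cofactors of KRAB zinc finger proteins and other genes of heterochromatin silencing were counted together for the same comparisons. Of the 25 genes, all measured, 0 passed against lacZ with CLP1, DDX5, DDX17 or PARP1. At an unadjusted p below 0.05 the counts there were 0, 2, 2 and 6, against 1695, 2096, 2713 and 3639 of all 18417 genes. At the adjusted threshold 2 fell with PABPC1, 3 with SUPT16H and 12 with PRKDC, with none higher and a median of -0.56 for PRKDC. The shares were 8%, 12% and 48%, against 4.02%, 5.76% and 16.1% of all genes as lower. CBX5, the heterochromatin protein HP1 alpha, fell with PRKDC (-1.07 ± 0.24, adjusted p = 0.00359), SUPT16H (-0.98 ± 0.24, adjusted p = 0.0136) and PABPC1 (-0.95 ± 0.24, adjusted p = 0.0206). MPHOSPH8, a subunit of the HUSH silencing complex, fell with SUPT16H (-1.08 ± 0.20, adjusted p = 0.00172) and PRKDC (-1.04 ± 0.20, adjusted p = 0.00142), and ATF7IP, the partner of SETDB1, with PRKDC (-1.32 ± 0.25, adjusted p = 0.00128) and PABPC1 (-0.93 ± 0.25, adjusted p = 0.0297, limma). In the HNRNPL arrays the 25 genes had a median of -0.08 against lacZ. Of 10 other retroviral envelope or provirus genes 6 were measured, and ERVMER34-1 fell with PRKDC (-0.57 ± 0.17, adjusted p = 0.0175) and SUPT16H (-0.64 ± 0.17, adjusted p = 0.0245), while ERVV-1 was higher with PRKDC (0.34 ± 0.13, adjusted p = 0.041, limma). These calls were 33.3% of the 6 with PRKDC and 16.7% with SUPT16H, against 35.7% and 9.53% of all genes in either direction. In each of the other 5 comparisons with lacZ 0 of the 6 passed, with 1 at an unadjusted p below 0.05 for PABPC1, 1 for PARP1 and 0 for the rest. At that threshold 4614 and 3639 of all 18417 genes passed for PABPC1 and PARP1. The median of the 6 in the HNRNPL arrays was 0.00 against lacZ. ERV3-1, at -0.79 there, was picked on these arrays, so nothing is read from the gap.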

How the data were processed

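Transcript levels were measured on 28 arrays, and groups, hairpin numbers and series came from the labels (lacZ arrays are numbered in accession order). The deposited table holds probeset intensity values on the linear scale (4.25 to 18486), which the authors made from the scans with robust multi-array averaging (RMA) in aroma.affymetrix: background subtraction, quantile normalization and summary of probes. The array medians place the series on different scales, so comparisons stay within a series, apart from the shared lacZ control and the test between the series. The number of arrays limits the precision.

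Of 33252 probesets, the 19460 with exactly 1 gene symbol were kept, and the one with the highest mean stood for a gene (18417 genes, 769 with several). The log2 of each deposited value was used, unfiltered and without a pseudocount. One linear model in limma 3.58.1 (R 4.3.3) over all 28 arrays had a mean per knockdown and series (17 residual degrees of freedom, intensity trend). p-values were adjusted by Benjamini-Hochberg over all genes and called under 0.05. CPSF6 (1 array) was not tested, nor were the HNRNPL contrasts. All 7 genes are named, list genes only where called (at most 4 a list and comparison), and 5 correlated genes each for ZNF117 and ERV3-1. Genes and lists were chosen with earlier results of these data known. Alternatives were other normalizations, pseudocount, filter, probeset choice, variance trend, separate series, a shared lacZ control, single arrays left out and a block for hairpin number. Promoters came from RefSeq (GRCh38.p14), and the array's genome build was not used. Figures used Python 3.11.15 and matplotlib 3.10.9.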

Additional observations from a re-analysis of the deposited data

How the results depend on the processing

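The 18 differences of single genes that passed kept their sign in every alternative, and single-array omissions took 35 of 86 calls below the threshold, 14 of them without lacZ array 2. For alternatives other than HNRNPL left out, the share of all genes passing was not counted. Leaving out the lone first-series lacZ array gives no comparison with lacZ. Genes passing against lacZ numbered 6 of 7 for PABPC1 and 7 for SUPT16H with the series fitted alone (3 and 4 in the reported fit), and 2 for DDX17 with both lacZ arrays behind every knockdown (0 reported). With a pseudocount of 16 they numbered 1 for PARP1 (2 reported, ZNF117 lost at an adjusted p of 0.0502), 2 for PABPC1 (ZNF117 lost, 0.0586) and 3 for SUPT16H (ERV3-1 lost, 0.0541, limma). With an array left out they ranged from 0 to 3 for PABPC1, 0 to 2 for PARP1, 2 to 7 for PRKDC and 0 to 3 for SUPT16H. Apart from lacZ array 2, the calls lost with 1 array out were ZNF117 for PABPC1 (adjusted p 0.0997 without hairpin 2, 0.119 without 3) and PARP1 (0.129 without hairpin 1, 0.0919 without 2), ZNF138 for PABPC1 (0.0589 without hairpin 3, 0.0638 without lacZ array 3) and SUPT16H (0.0505 without hairpin 3, 0.073 without lacZ array 3), ERV3-1 for SUPT16H (0.0713 without hairpin 1, 0.137 without 2, 0.0637 without lacZ array 3), and for PRKDC ERV3-1, ZNF107 and ZNF680 (0.0882, 0.061 and 0.0649 without hairpin 1) and ZNF680 (0.107 without hairpin 3, 0.0572 without lacZ array 3), all by limma. Against the other knockdowns DDX17 had 0 with the series fitted alone, 0 with HNRNPL left out (an alternative chosen after seeing the data) and 0 to 1 with a hairpin left out, DDX5 had 0 to 1, and PARP1 had 1, ZNF138, with the series fitted alone. The HNRNPL differences from lacZ were -0.95 to -0.62 for ZNF117 and -0.79 to -0.50 for ERV3-1 over the settings that keep all hairpins, and -1.10 to -0.74 and -0.95 to -0.60 with a hairpin left out. Against the other knockdowns they were -1.45 to -1.09 and -1.36 to -1.01 with a hairpin left out.

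Hairpin numbers name different sequences in different genes and do not pair arrays: same-numbered arrays of different knockdowns had deviations that correlated with a median of 0.02 (-0.58 to 0.83, 36 pairs). With hairpin number as a replicate block, 4 genes passed for PABPC1, 2 for PARP1, 7 for PRKDC and 5 for SUPT16H against lacZ, and 2 for DDX17 against the other knockdowns, with 0 in the remaining comparisons. ZNF273 was the gene gained with PABPC1 and SUPT16H.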
